A study of Mus musculus with 96 samples.

Results

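Muscle cells that waste switch on a small set of ubiquitin ligases. The 8 genes followed here belong to that circuit: the ligases Fbxo32, Trim63, Fbxo30, Nedd4 and Mul1 and the transcription factors Foxo1, Foxo3 and Foxo4. They were taken by gene name, from a list drawn up with earlier results of these data known. All 8 were found, among 54146 mouse genes in the count table. A ubiquitin ligase picks the protein to be tagged for the proteasome. Fbxo32 (atrogin-1) and Fbxo30 are substrate-binding subunits of SCF-type ligases, and Trim63 (MuRF1) is a RING ligase that works at the sarcomere. Nedd4 is a HECT-type ligase of many membrane proteins, and Mul1 is a RING ligase anchored in the outer mitochondrial membrane. The FOXO factors are held outside the nucleus when insulin and IGF signalling activates the kinase Akt, and they are known to drive Fbxo32, Trim63 and other genes of muscle wasting when that signal falls.

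RNA was sequenced from 96 samples of C2C12, a mouse myoblast line that stops dividing and fuses into myotubes when serum is lowered. The samples fall into 35 conditions, 26 of them with 3 samples and 9 with 2. Myoblasts (45 samples) carried a luciferase control gene (Luc), LbNOX (Lb, a bacterial enzyme that oxidises NADH to NAD+ and makes water), the same enzyme sent to mitochondria (mLb), or yeast NDI1 (an NADH dehydrogenase that bypasses complex I). Each was carried as a stable line made with lentivirus and driven from a doxycycline-inducible promoter. Every myoblast sample, Luc included, was kept in 300 ng/ml doxycycline. They received DMSO, 0.5 µM piericidin (Pier, a complex I inhibitor), 0.5 µM antimycin (Anti, a complex III inhibitor) or 1 µM oligomycin (Oligo, an ATP synthase inhibitor) for 10 h. Oligomycin was given to Luc and Lb myoblasts only, and NDI1 myoblasts received only DMSO or piericidin. Other Luc and Lb samples received 20 µg/ml chloramphenicol (CAP, an inhibitor of mitochondrial protein synthesis) or its own DMSO control for 48 h. By the study's methods uridine was present in those 48 h and absent from the medium of the 10 h treatments. Myotubes had spent 4 days in low serum. Of these, 27 samples were untransduced and were treated for 10 h, also with 0.5 µM of the uncoupler BAM15, with combinations, or in 5% oxygen (Hyp), which began the night before the 10 h treatment. The other 15 had been given adenovirus encoding GFP alone or GFP with LbNOX, and received DMSO, piericidin or oligomycin for 10 h. Day 1 cells (9 samples, untransduced) had spent 24 h in low serum and received DMSO, piericidin or oligomycin. The labels say that samples of a condition are numbered replicates of one cell line and do not say that they came from separate cultures, so p-values measure the spread between these samples.

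Counts per sample ran from 6458295 to 15366745, with a median of 10336588.5. Levels are given as CPM, counts scaled to a common library size, with the SD over samples. Changes are log2 fold changes with their SE. A gene is called changed at an adjusted p under 0.05 (edgeR's quasi-likelihood F test, adjusted over all genes tested). By their summed levels the marker lists followed the labelled states. The summed level of 8 myotube markers ran from 411 to 421 CPM in DMSO myoblasts, 13007 to 13581 CPM in day 1 cells and 16935 to 17388 CPM in myotubes, and none of the 8 was at 0 in all libraries of a state. Myh1 was at 0 in 2 of the 3 myoblast libraries. That of 6 markers of dividing myoblasts ran from 1309 to 1326, 232 to 258 and 137 to 169 CPM. In day 1 cells and myotubes the markers of dividing cells were thus still present. Single markers went other ways: Myog averaged 1455 CPM in day 1 cells and 761 in myotubes. Myf5, which is in the dividing and the reserve cell list, averaged 10.9 CPM in myoblasts, 17.5 in day 1 cells and 9.04 in myotubes. The 3 markers of undifferentiated reserve cells had their highest sum in day 1 cells, at 56.1 to 64.1 CPM in myoblasts, 75.2 to 77.5 in day 1 cells and 58.7 to 60.9 in myotubes. Of these, Pax7 averaged 2.65, 12.5 and 5.17 CPM and Cd34 46.5, 46.5 and 45.5 CPM. In addition, 3 adipocyte markers summed to at most 0.644 CPM, with 1 or 2 of them at 0 in all libraries of a state, and 4 stress-response reference genes to 238 to 270 CPM. Of the latter, Atf4 averaged 233, 232 and 206 CPM in myoblasts, day 1 cells and myotubes and Ddit3 15.5, 23.1 and 19.4 CPM. In the same order Atf3 averaged 0.963, 5.55 and 3.73 CPM and Trib3 8.28, 5.84 and 11.1 CPM. In bulk RNA, fewer cells of one kind and less RNA per cell cannot be told apart. The plate code of each sample (A01 to H12, read here as a well of a plate, which the labels do not explain) is taken up below. Calls lost with it as a covariate are given with their result or in the last section.

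In the GENCODE annotation of GRCm38, all 8 members are protein-coding. Fbxo32 lies on chromosome 15 (58175879 to 58214932, minus strand). Trim63 lies on chromosome 4 (134315120 to 134329629, plus) and Mul1 on the same chromosome (138434671 to 138442265, plus). Fbxo30 and Foxo3 lie on chromosome 10 (11281330 to 11298052, plus, and 42181841 to 42276755, minus), Nedd4 lies on chromosome 9 (72662346 to 72749852, plus), Foxo1 on chromosome 3 (52268336 to 52353221, plus) and Foxo4 on chromosome X (101254528 to 101260873, plus). Exons of Fbxo32 overlap the antisense gene Gm15943 and those of Foxo1 the antisense gene Gm20402. Smart-seq2 libraries do not mark strand, so reads from such a pair cannot be told apart where the transcripts overlap.

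RefSeq promoter windows (GRCm38.p6, 250 bases before to 50 after the start) were at hand for 6 members, and none for Fbxo32 and Foxo4. The windows of Trim63, Foxo1 and Mul1 are shown because the 3 genes followed different courses below: Trim63 was at or near 0 in myoblasts and higher in myotubes. In Luc myoblasts Foxo1 fell with each inhibitor, while Mul1 rose with piericidin and antimycin and fell with oligomycin. Capitals mark, on either strand, the FOXO core GTAAACA, the E box CANNTG (read by myogenic factors of the MyoD family and others) and the ATF4 core TGATGNAA, each printed 5′ to 3′ on the gene's own strand. In the order shown they span chr4:134314870-134315169 (plus), chr3:52268087-52268386 (plus) and chr4:138434422-138434721 (plus).
Trim63: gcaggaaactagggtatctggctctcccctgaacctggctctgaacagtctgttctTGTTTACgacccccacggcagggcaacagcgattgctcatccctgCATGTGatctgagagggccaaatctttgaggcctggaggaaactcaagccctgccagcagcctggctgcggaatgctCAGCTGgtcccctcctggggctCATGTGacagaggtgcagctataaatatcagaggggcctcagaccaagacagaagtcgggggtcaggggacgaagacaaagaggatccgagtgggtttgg
Foxo1: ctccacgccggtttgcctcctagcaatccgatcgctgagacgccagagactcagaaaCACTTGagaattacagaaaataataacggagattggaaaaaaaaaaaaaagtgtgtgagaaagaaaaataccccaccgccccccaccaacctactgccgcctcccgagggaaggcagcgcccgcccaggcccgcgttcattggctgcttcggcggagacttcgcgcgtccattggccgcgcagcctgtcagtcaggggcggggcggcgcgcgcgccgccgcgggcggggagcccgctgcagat
Mul1: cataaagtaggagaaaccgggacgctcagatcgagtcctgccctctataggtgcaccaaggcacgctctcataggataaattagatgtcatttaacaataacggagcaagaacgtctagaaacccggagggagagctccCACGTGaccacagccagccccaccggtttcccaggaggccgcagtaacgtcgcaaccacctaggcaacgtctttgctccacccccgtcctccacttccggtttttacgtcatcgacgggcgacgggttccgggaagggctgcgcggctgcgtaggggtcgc
Trim63 was the only one of the 6 members whose window held a FOXO core, a reverse-strand match that starts 194 bases before the start site, and 3.65% of all 32851 promoters of this length hold one. Directly before it, with no shared base, stands TGTTCT, a short motif of the glucocorticoid receptor, which 19.0% of all promoters hold. Trim63 also held 3 E boxes, Foxo1 and Mul1 held 1 each (in Mul1 the palindrome CACGTG), and 72.3% of all promoters hold at least 1. Of 2 annotated Nedd4 starts, 1 held 4 E boxes and the other none, and the windows of Fbxo30 and Foxo3 held none. None of the 6 members held the ATF4 core in its window, which 3.97% of promoters hold. These are letter matches in a short window and show no binding.

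Fbxo32 and Trim63 were far lower in myoblasts than in day 1 cells and myotubes. In DMSO-treated Luc myoblasts Fbxo32 stood at 13.4, 14.8 and 17.4 CPM, in day 1 cells at 64, 69.99 and 61.1 and in myotubes at 52.5, 53.6 and 53.3 CPM. No myoblast sample reached the lowest day 1 or myotube sample. Against myoblasts the gene rose by 1.80 ± 0.11, adjusted p = 7.29e-15 in myotubes (log2 scale, here and below), and rose by 2.13 ± 0.11, adjusted p = 1.67e-16 in day 1 cells. The level in myotubes was below that in day 1 cells (-0.32 ± 0.10, adjusted p = 0.0111), a call that was lost without replicate 1 or 2 (-0.29, adjusted p = 0.0555 to 0.117). In comparisons between states, leaving out a replicate removed that number from all conditions of the fit at once, not a single library.

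Trim63 had 0 counts in all 3 DMSO Luc myoblast libraries. Over all 45 myoblast libraries it had 16 counts, at most 3 in a library, and 33 libraries had none. In day 1 cells it stood at 15.4, 12.9 and 14.5 CPM and in myotubes at 14.8, 16.4 and 16.5 CPM. Set against a floor of 3 counts in a library, which allowed up to 0.276 CPM in the shallowest of these myoblast libraries, that is at least 51.7-fold higher in day 1 cells and at least 57.7-fold higher in myotubes (a floor covers counting error only). The myotube and day 1 levels did not separate (0.12 ± 0.14, adjusted p = 0.531).

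**Figure D1:**
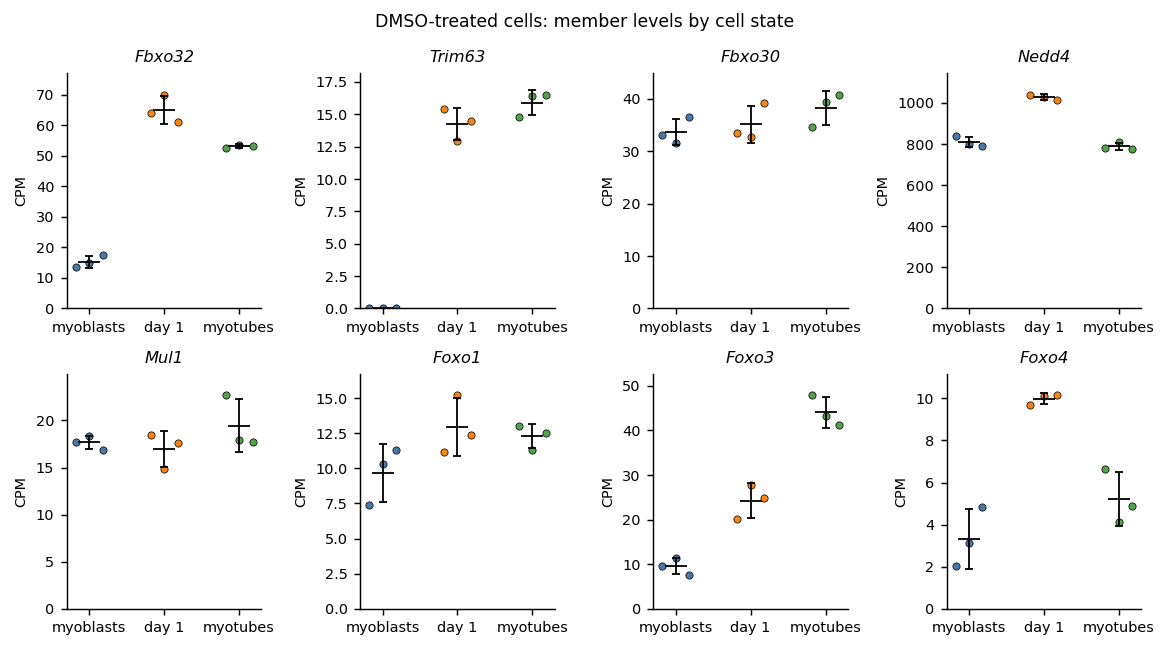
Level of each member (CPM, y axis from 0) in DMSO-treated Luc myoblasts, day 1 cells and myotubes. Points are samples (n = 3 per state), bars the mean and SD. Fbxo32 is low and Trim63 at 0 in these myoblasts and both are high in the other states, whereas Fbxo30 and Mul1 overlap across the 3 states.

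The FOXO genes did not move as one across the states. Foxo4 stood at 2.02, 3.10 and 4.84 CPM in myoblasts, 9.69, 10.1 and 10.2 in day 1 cells and 6.66, 4.14 and 4.90 in myotubes, so the middle state was the highest, as it was for Nedd4 below and for the reserve cell markers Pax7 and Myf5 above. The third of that list, Cd34, was level over the states, and the part of such cells in these levels was not tested. Foxo4 rose by 1.62 ± 0.29, adjusted p = 1.75e-05 from myoblasts to day 1 cells and lay lower in myotubes than in day 1 cells (-0.97 ± 0.28, adjusted p = 0.00733). This second call was lost without replicate 2 (-0.83, adjusted p = 0.0907) and with plate position as a covariate (-0.87, adjusted p = 0.0976). Between myotubes and myoblasts Foxo4 read 0.65 ± 0.30, adjusted p = 0.0568. That difference was called with DESeq2's Wald test (0.66, adjusted p = 0.0448), with the replicate block (0.67, adjusted p = 0.0384) and without replicate 3 (1.05, adjusted p = 0.00505). Foxo1 stood at 7.35, 10.3 and 11.3 CPM in myoblasts, 11.2, 15.2 and 12.4 in day 1 cells and 13, 11.3 and 12.5 in myotubes. Its rise in day 1 cells (0.45 ± 0.19, adjusted p = 0.038) was lost without replicate 1 or 2 (0.34 to 0.37, adjusted p = 0.125 to 0.266). Foxo3 stood at 9.56, 11.4 and 7.68, 20.1, 27.8 and 24.9 and 48, 43.2 and 41.1 CPM in myoblasts, day 1 cells and myotubes, but its values followed the plate code, as given next.

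Nedd4, the most abundant member by far, was highest in day 1 cells. It stood at 838, 802 and 792 CPM in myoblasts, 1041, 1030.2 and 1013 in day 1 cells and 782, 808 and 777 in myotubes. It rose by 0.37 ± 0.05, adjusted p = 4.77e-08, in day 1 cells and fell again by myotubes (-0.42 ± 0.05, adjusted p = 3.44e-08), with no overlap of the day 1 samples with either. Fbxo30 (33.7 ± 2.53, 35.1 ± 3.54 and 38.3 ± 3.25 CPM) and Mul1 (17.7 ± 0.716, 17 ± 1.88 and 19.4 ± 2.83 CPM, SD, n = 3 each) were not called in any of the 3 state comparisons, although Fbxo30 was called between myotubes and myoblasts with DESeq2's size factors (0.20, adjusted p = 0.0464) and with the well covariate described below (0.26, adjusted p = 0.047). Trim63 entered these tests only through the states where it is high, so its call against myoblasts and its direction were fixed by the count filter. With it, 3 of the 8 members were called between myotubes and myoblasts, where 69.2% of all genes were, 6 of the 8 between day 1 cells and myoblasts (63.2% of genes), and 4 of the 8 between myotubes and day 1 cells (35.8%). Without Trim63 the first count is 2 of 7 and the second 5 of 7, and each of these called members was higher than in myoblasts. These states also differ in serum, cell density, transgene and doxycycline, which cannot be told apart from differentiation here. Per kilobase of annotated exon, Nedd4 led in DMSO myotubes (71.9 CPM per kb), followed by Fbxo32 (7.62), Fbxo30 (7.38), Foxo3 (5.82), Trim63 (5.60), Mul1 (4.86), Foxo4 (1.50) and Foxo1 (1.42). In DMSO myoblasts the order after Nedd4 (73.9) was Fbxo30 (6.48), Mul1 (4.42), Fbxo32 (2.18), Foxo3 (1.26), Foxo1 (1.11), Foxo4 (0.954) and Trim63 at 0. The place of Foxo3 in both orders moves with well position, given next, since the DMSO myotube libraries were all in inner wells and the DMSO myoblast libraries all in outer wells.

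Foxo3 had the highest median CV between samples of one condition, 27%, where counting alone gives 6.35%. Separate samples commonly vary by more than counting. For the other members the median CVs ran from 3.65% for Nedd4 (1.1% from counting) to 17.2% for Foxo4 (14.5% from counting). In the 18 conditions with samples in both outer wells (rows A and H, columns 1 and 12) and inner wells, Foxo3 was lower in the outer wells in 18 of 18, by 0.81 ± 0.23 on average (SD over conditions, log2 of CPM plus 0.5). In myotubes given antimycin, for example, the outer sample held 27 CPM and the 2 inner samples 44.5 and 52.9 CPM. A fit over all 96 samples with condition and well position as terms gave -0.81 ± 0.06 for Foxo3 (adjusted p = 2.8e-16), the 239th lowest value of 13357 genes. Nedd4 was also called, at 0.08 ± 0.01 (adjusted p = 8.52e-06), and the other 6 members were not (-0.10 to 0.11). Of all genes, 18.3% were called in this fit. What the plate code stands for was not tested. How far it moved with each Foxo3 comparison is given next.

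**Figure D2:**
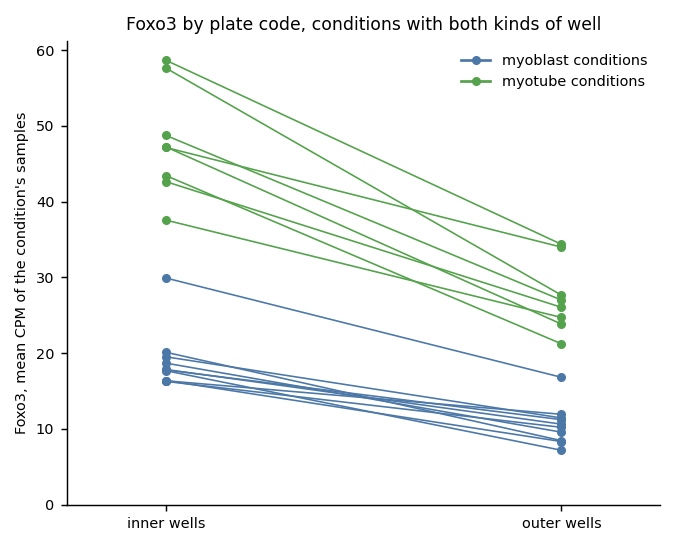
Mean Foxo3 level (CPM, y axis from 0) of the inner-well and outer-well samples of each of the 18 conditions that hold both. Each line joins the 2 means of one condition, blue for myoblasts and green for myotubes, and every line runs down from inner to outer wells.

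All 3 DMSO Luc myoblast libraries and all 9 day 1 libraries were in outer wells and all 3 DMSO myotube libraries in inner wells. With well position as a covariate, Foxo3 still rose from myoblasts to day 1 cells (1.37 ± 0.19, adjusted p = 3.32e-07) and to myotubes (1.51 ± 0.23, adjusted p = 1.86e-06, against 2.20 ± 0.26, adjusted p = 1.08e-08 without it). The step from day 1 cells to myotubes shrank from 0.83 ± 0.23, adjusted p = 0.00652 to 0.14 ± 0.22, adjusted p = 0.723, and without the covariate the call was lost without replicate 1 (0.68, adjusted p = 0.0679). Over 51 comparisons in which the covariate could be fitted, Foxo3 was called in 7 without it and in 7 with it, with 4 in common. Foxo3 values below are therefore given both ways.

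The first question for the drugs was how Luc myoblasts respond to blocking complex I, complex III or ATP synthase. The ligases split: Fbxo32 fell with piericidin and oligomycin and had no called fall with antimycin, while Mul1 rose with piericidin and antimycin but fell with oligomycin. Fbxo32 stood at 13.4, 14.8 and 17.4 CPM with DMSO, 9.29, 7.27 and 9.32 with piericidin, 8.37, 9.49 and 9.71 with oligomycin and 22.8, 18.4 and 16.5 with antimycin. All piericidin and oligomycin samples were below all DMSO samples, and the antimycin samples overlapped them. Fbxo32 fell by 0.78 ± 0.18, adjusted p = 0.000432, with piericidin and fell by 0.71 ± 0.18, adjusted p = 0.0012, with oligomycin, whereas antimycin gave 0.37 ± 0.17, adjusted p = 0.0563. This value was called as a rise with the well covariate (0.50, adjusted p = 0.0282), without Luc DMSO replicate 3 (0.49, adjusted p = 0.0286) and without Luc Anti replicate 3 (0.47, adjusted p = 0.0333). Compared directly, antimycin samples held more Fbxo32 than piericidin samples (1.15 ± 0.18, adjusted p = 6.06e-06) and oligomycin samples (1.08 ± 0.18, adjusted p = 6.99e-06).

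Mul1, the mitochondrial outer-membrane ligase, stood at 17.7, 18.3 and 16.9 CPM with DMSO, 25.5, 31 and 30.6 with piericidin, 38.9, 36.9 and 35.6 with antimycin and 14.3, 12.1 and 13.7 with oligomycin. The 4 groups did not overlap. It rose by 0.76 ± 0.11, adjusted p = 4.08e-07, with piericidin and rose by 1.11 ± 0.11, adjusted p = 2.09e-10, with antimycin, and fell by 0.39 ± 0.11, adjusted p = 0.00408, with oligomycin. The direct differences were 1.50 ± 0.11, adjusted p = 1.18e-12 for antimycin against oligomycin, 1.15 ± 0.11, adjusted p = 8.43e-10 for piericidin against oligomycin and 0.35 ± 0.10, adjusted p = 0.00857 for antimycin against piericidin, the last lost without Luc Pier replicate 1 (0.28, adjusted p = 0.0649). Luc myoblasts with antimycin held the highest mean Mul1 level of all 35 conditions (37.1 CPM) and those with oligomycin the lowest (13.3 CPM).

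Fbxo30 rose with both respiratory chain inhibitors. It stood at 33.1, 31.5 and 36.5 CPM with DMSO, 49.4, 50.03 and 47.7 with piericidin, 47.4, 48.6 and 48.2 with antimycin and 38.8, 38.1 and 37 with oligomycin. It rose by 0.58 ± 0.10, adjusted p = 1.21e-05, with piericidin and rose by 0.55 ± 0.10, adjusted p = 2.71e-05, with antimycin. Oligomycin gave 0.19 ± 0.10, adjusted p = 0.122, and both piericidin (0.39 ± 0.10, adjusted p = 0.00246) and antimycin samples (0.36 ± 0.10, adjusted p = 0.00404) held more than oligomycin samples. Nedd4 moved little. It stood at 838, 802 and 792 CPM with DMSO, 718, 768 and 726 with piericidin, 902, 857 and 811 with antimycin and 762, 747 and 698 with oligomycin. The calls against DMSO were small (0.12 ± 0.05, adjusted p = 0.0477 with antimycin and -0.12 ± 0.05, adjusted p = 0.041 with oligomycin). Piericidin, whose samples all lay below those with DMSO, gave -0.10 ± 0.05, adjusted p = 0.0993, and was called with the replicate block (-0.10, adjusted p = 0.041) and with only the groups compared (-0.12, adjusted p = 0.0115). The antimycin call was lost without Luc DMSO replicate 2 or 3 or Luc Anti replicate 1 or 2 (0.05 to 0.11, adjusted p = 0.107 to 0.516). The oligomycin call was lost without Luc DMSO replicate 1 or 2 or 3 or Luc Oligo replicate 2 or 3 (-0.13 to -0.10, adjusted p = 0.0533 to 0.161). Both calls were lost with DESeq2's size factors (adjusted p = 0.0858 and 0.0904) and with its Wald test (adjusted p = 0.0757 and 0.0808). The antimycin call was also lost with only the groups compared (0.09, adjusted p = 0.0571) and the oligomycin call with the well covariate (-0.06, adjusted p = 0.227). Antimycin against piericidin (0.21 ± 0.05, adjusted p = 0.0013) and against oligomycin (0.24 ± 0.05, adjusted p = 0.000222) kept their calls when any library was left out. Trim63 was not tested in myoblasts, where it had at most 3 counts in a library.

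Foxo1 fell with all 3 inhibitors. From 7.35, 10.3 and 11.3 CPM with DMSO it went with piericidin to 5.31, 4.88 and 3.92 CPM. With antimycin it read 3.51, 3.23 and 2.40 and with oligomycin 7.39, 4.79 and 3.77 CPM. The antimycin and piericidin samples lay below all DMSO samples, and 1 oligomycin sample overlapped the lowest DMSO sample. Foxo1 fell by 1.00 ± 0.21, adjusted p = 0.000173, with piericidin, fell by 1.62 ± 0.22, adjusted p = 2.78e-07, with antimycin and fell by 0.84 ± 0.21, adjusted p = 0.00116, with oligomycin. Antimycin samples were lower than oligomycin samples (-0.79 ± 0.24, adjusted p = 0.00626), which was lost without Luc Oligo replicate 1 (-0.48, adjusted p = 0.11). They were also lower than piericidin samples (-0.62 ± 0.24, adjusted p = 0.0419), which was lost without Luc Anti replicate 2 or 3 or Luc Pier replicate 1 or 2 (-0.68 to -0.49, adjusted p = 0.0583 to 0.167). Foxo4, at 2.02, 3.10 and 4.84 CPM with DMSO, read 1.51, 1.89 and 1.49 with antimycin and 1.43, 0.769 and 2.17 with oligomycin. It fell by 0.99 ± 0.34, adjusted p = 0.0133, with antimycin and fell by 1.20 ± 0.34, adjusted p = 0.00438, with oligomycin. Both calls were lost without DMSO replicate 3, the highest sample (-0.62, adjusted p = 0.141, and -0.83, adjusted p = 0.061), the first also with the well covariate (-0.80, adjusted p = 0.0781). Piericidin gave -0.72 ± 0.34, adjusted p = 0.0624. Foxo3 was not called with any inhibitor (0.64 to 0.78 without the well covariate, -0.08 to 0.10 with it). Its rise was called with all 3 inhibitors when no count filter was used (adjusted p = 5.22e-05, 8.35e-06 and 0.00118) and when only the groups compared were fitted (adjusted p = 0.0268, 0.0121 and 0.0498), with antimycin under the replicate block (0.76, adjusted p = 0.0352), without Luc Pier replicate 2 for piericidin (0.94, adjusted p = 0.039) and without Luc Anti replicate 2 for antimycin (0.91, adjusted p = 0.0412).

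Against these counts stand large shares of all genes. Members called were 4 of the 7 tested with piericidin (61.7% of all genes called), 5 of the 7 with antimycin (63.2%) and 5 of the 7 with oligomycin (50.8%), so calls on the members were about as common as on other genes and their directions carry the description. Between inhibitors they were 4 of the 7 for antimycin against piericidin (37.2%), 5 of the 7 for antimycin against oligomycin (50%) and 2 of the 7 for piericidin against oligomycin (39.2%). The median log2 fold changes were -0.10 over the members and 0.00 over all genes tested with piericidin, 0.37 over the members and 0.00 over all genes tested with antimycin and -0.39 over the members and -0.01 over all genes tested with oligomycin.

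A second question was whether an enzyme that oxidises NADH changes these responses. With DMSO no transgene gave a called member: 0 of the 7 tested were called in Lb (2.68% of genes), mLb (1.77%) or NDI1 myoblasts (4.61%) against Luc, with 1 member in each at an unadjusted p under 0.05 (Fbxo32, -0.50, in Lb, and Nedd4, -0.13 and -0.15, in mLb and NDI1) and 0 called by DESeq2. Nedd4 in NDI1 was called with the replicate block (-0.17, adjusted p = 0.0244) and with the well covariate (-0.15, adjusted p = 0.0282). Under piericidin the calls made in Luc cells had no counterpart in the other lines. Fbxo32 in Lb myoblasts stood at 13.3, 11.2 and 7.72 CPM with DMSO and 11.7, 10.5 and 10.8 with piericidin, and Mul1 at 18.7, 16.9 and 14.4 and 15.8, 17.3 and 16.6. No member was called with piericidin in Lb (8.87% of genes), mLb (11.2%) or NDI1 myoblasts (0.00835%). At an unadjusted p under 0.05 there were 0, 0 and 1 (Foxo3, 0.98, or 0.11 with the well covariate), and DESeq2 called 0 in each. With no count filter Foxo3 was called in mLb (0.62, adjusted p = 0.00269) and NDI1 (0.96, adjusted p = 5.59e-05). With the well covariate it read 0.10, adjusted p = 0.847, in mLb.

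The difference itself was tested as an interaction. Under piericidin it was called at 4 of the 7 members in Lb against Luc (44.3% of genes), at 3 in mLb (42.9%) and at 2 in NDI1 (42.7%). Mul1 differed in all 3 lines, by -0.76 ± 0.15, adjusted p = 0.000142 in Lb, by -0.84 ± 0.15, adjusted p = 4.14e-05 in mLb and by -0.93 ± 0.17, adjusted p = 5e-05 in NDI1. Foxo1 differed in Lb (0.95 ± 0.29, adjusted p = 0.00843) and mLb (0.89 ± 0.29, adjusted p = 0.0142), and in NDI1, with 2 samples a group, read 0.74 ± 0.32, adjusted p = 0.0627. The Fbxo32 interaction was called in Lb (0.81 ± 0.25, adjusted p = 0.00953), with 0.52 ± 0.25, adjusted p = 0.0981 in mLb and 0.44 ± 0.28, adjusted p = 0.211 in NDI1. Differences between those lines were not tested. Fbxo30 differed in mLb (-0.60 ± 0.14, adjusted p = 0.00106), in Lb (-0.41 ± 0.14, adjusted p = 0.0212) and in NDI1 (-0.41 ± 0.16, adjusted p = 0.0392). The Lb call was lost without Lb Pier replicate 2 or Luc DMSO replicate 2 (-0.36 to -0.31, adjusted p = 0.0597 to 0.0907), and the NDI1 call without Luc DMSO replicate 1 or 2, NDI1 Pier replicate 1 or 2, Luc Pier replicate 1 or 2 or NDI1 DMSO replicate 2 (-0.43 to -0.35, adjusted p = 0.0639 to 0.14).

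Under antimycin Fbxo32 fell in Lb and mLb myoblasts, which it had not done in Luc. In Lb myoblasts Fbxo32 went from 13.3, 11.2 and 7.72 CPM with DMSO to 5.61, 4.60 and 4.47 with antimycin, the lowest mean of all 35 conditions, while in Luc myoblasts it had gone to 22.8, 18.4 and 16.5. It fell by 1.07 ± 0.19, adjusted p = 3e-05, in Lb and fell by 0.58 ± 0.18, adjusted p = 0.00878, in mLb myoblasts, where the samples read 14.7, 12.5 and 8.87 with DMSO and 6.61, 8.98 and 8.28 with antimycin. The mLb call was lost without mLb Anti replicate 1 or mLb DMSO replicate 1 (-0.47 to -0.45, adjusted p = 0.0557 to 0.0672). The interactions with Luc were -1.45 ± 0.26, adjusted p = 2.13e-05 in Lb and -0.95 ± 0.25, adjusted p = 0.00358 in mLb, and both kept their calls when any library was left out.

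Mul1 rose less with antimycin in Lb and mLb myoblasts than in Luc. It read 20.4, 16.2 and 16.5 CPM in Lb (0.14 ± 0.11, adjusted p = 0.295) and 21.4, 24 and 19.9 in mLb myoblasts, where the rise was called (0.32 ± 0.11, adjusted p = 0.0157) and lost without mLb DMSO replicate 1 or mLb Anti replicate 2 (0.24 to 0.25, adjusted p = 0.0979 to 0.125). The interactions were -0.96 ± 0.15, adjusted p = 3.98e-06 in Lb and -0.79 ± 0.15, adjusted p = 0.000153 in mLb. Foxo1 under antimycin read 7.12, 6.72 and 7.51 CPM in Lb and 8.58, 6.90 and 6.19 in mLb. Its falls, -0.50 ± 0.20, adjusted p = 0.0435 and -0.51 ± 0.20, adjusted p = 0.037, were smaller than in Luc (interactions 1.12 ± 0.30, adjusted p = 0.0026 and 1.11 ± 0.30, adjusted p = 0.0055). The fall in Lb was lost without Lb DMSO replicate 1 or 2 or Lb Anti replicate 1 or 2 or 3 (-0.56 to -0.45, adjusted p = 0.0545 to 0.116). That in mLb was lost without mLb DMSO replicate 2 or 3 or mLb Anti replicate 2 or 3 (-0.54 to -0.38, adjusted p = 0.0561 to 0.175).

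Fbxo30 rose with antimycin in Lb (0.29 ± 0.10, adjusted p = 0.022), which was lost without Lb DMSO replicate 1 or Lb Anti replicate 2 or 3 (0.20 to 0.27, adjusted p = 0.0558 to 0.158). Its interaction was called in mLb (-0.43 ± 0.14, adjusted p = 0.022) but was lost without Luc Anti replicate 2, mLb DMSO replicate 1 or 3, Luc DMSO replicate 2 or mLb Anti replicate 3 (-0.39 to -0.38, adjusted p = 0.0518 to 0.0644). The Foxo4 interactions (1.11 ± 0.47, adjusted p = 0.0488 in Lb and 1.34 ± 0.48, adjusted p = 0.0308 in mLb) were both called. The first was lost without Luc DMSO replicate 2 or 3, Lb DMSO replicate 2 or 3, Luc Anti replicate 1 or 3 or Lb Anti replicate 1 or 3 (0.74 to 1.17, adjusted p = 0.056 to 0.202), and the second without Luc DMSO replicate 3, mLb Anti replicate 1 or 2, mLb DMSO replicate 2 or 3 or Luc Anti replicate 1 or 3 (0.97 to 1.29, adjusted p = 0.06 to 0.13). Both were also lost with no count filter, with the well covariate and with only the groups compared. The first was lost with DESeq2's Wald test and the replicate block too. Over these alternatives the first read 0.98 to 1.15 (adjusted p = 0.0573 to 0.255) and the second 1.22 to 1.34 (adjusted p = 0.0579 to 0.167). Nedd4 fell with antimycin in Lb (-0.13 ± 0.05, adjusted p = 0.0404) and its interaction was -0.24 ± 0.07, adjusted p = 0.00549. The fall was lost without Lb DMSO replicate 1 or 2 or Lb Anti replicate 2 or 3 (-0.13 to -0.10, adjusted p = 0.0895 to 0.144). The interaction was lost without Luc Anti replicate 2 or Lb Anti replicate 3 (-0.19, adjusted p = 0.0542 to 0.0547). Foxo3 rose with antimycin in Lb myoblasts from 10.1, 10.4 and 16.3 to 16.8, 28.8 and 31.1 CPM (1.12 ± 0.34, adjusted p = 0.00839, or 0.82 ± 0.19, adjusted p = 0.000664, with the well covariate). Its interaction with Luc was 0.34 ± 0.50, adjusted p = 0.601, or 0.90 ± 0.28, adjusted p = 0.00766, with the covariate. Members called were 5 of the 7 tested in Lb (46.1% of genes), 3 in mLb (47.7%), 5 in the Lb interaction (51.5%) and 5 in the mLb interaction (31.7%).

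Oligomycin left a single called member in Lb myoblasts (35.2% of genes), Foxo1, which went from 11.2, 11 and 9.21 to 4.63, 4.29 and 6.35 CPM (-0.99 ± 0.21, adjusted p = 0.000373). Fbxo32 there read 12.3, 9.59 and 8.87 CPM and Mul1 18.3, 15 and 14.3 CPM (-0.03 ± 0.18, adjusted p = 0.922 and -0.03 ± 0.11, adjusted p = 0.869). The oligomycin interaction of Lb with Luc was called at 0 of 7 members (7.98% of genes), with 3 at an unadjusted p under 0.05 (Fbxo32, Foxo4 and Mul1) and 0 by DESeq2, so the missing Fbxo32 and Mul1 falls in Lb were not shown to differ from those in Luc.

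**Figure D3:**
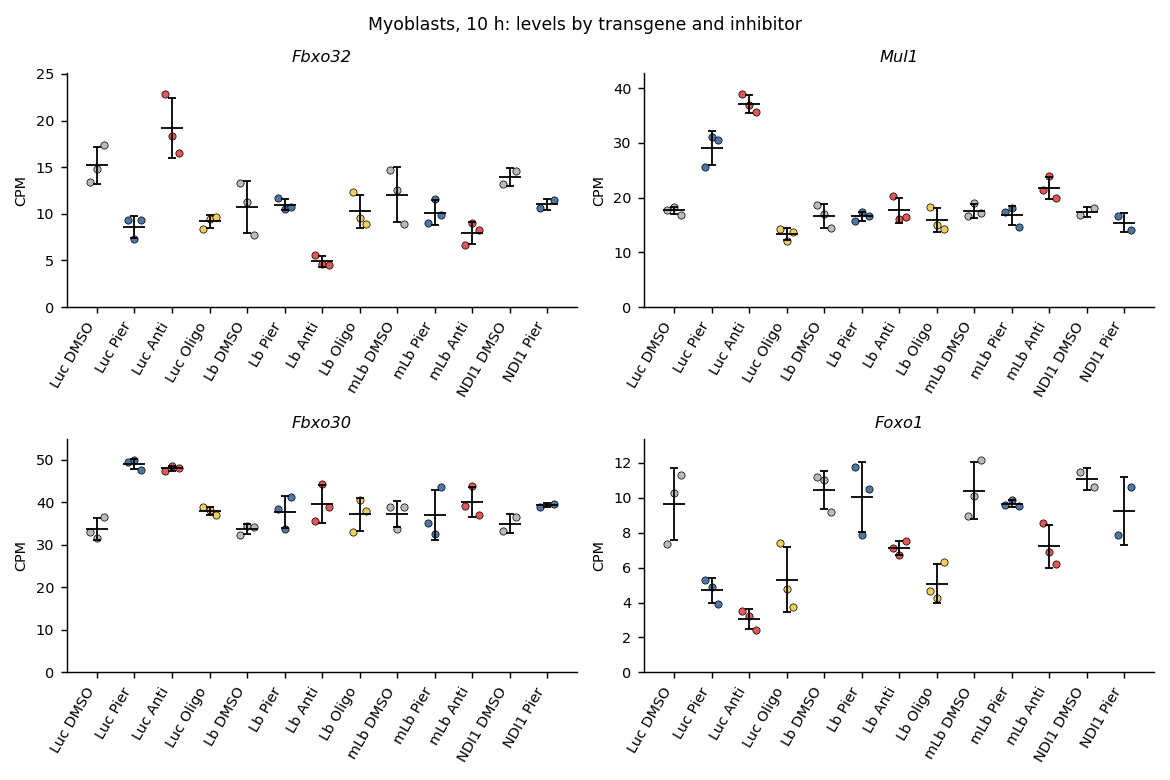
Levels (CPM, y axis from 0) of Fbxo32, Mul1, Fbxo30 and Foxo1 in myoblasts after 10 h, by transgene and inhibitor. Points are samples (n = 3, for NDI1 n = 2), bars the mean and SD. Mul1 with antimycin stands at 35.6 to 38.9 CPM in Luc cells and at 16.2 to 20.4 CPM in Lb cells, and Fbxo32 with antimycin at 16.5 to 22.8 and 4.47 to 5.61 CPM.

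Blocking mitochondrial translation for 48 h gave no called member. Fbxo32 stood at 14.4 and 18.9 CPM with DMSO and 11.2 and 10.8 with chloramphenicol in Luc myoblasts (2 samples each, -0.55 ± 0.23, adjusted p = 0.195), and Mul1 at 16.6 and 16.6 and 16.5 and 17.1. Calls were 0 of 7 members in Luc (8.45% of genes), 0 in Lb (0.931%) and 0 in their interaction (0.530%), with 1, 0 and 0 members at an unadjusted p under 0.05 and 0 by DESeq2 in each. In Luc, Mul1 read 0.07 ± 0.14, adjusted p = 0.829, and Foxo1 0.05 ± 0.19, adjusted p = 0.91. Foxo4 was known less closely (-0.62 ± 0.42, adjusted p = 0.439). Duration, uridine and seeding density also differed from the 10 h treatments.

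The wider circuit in Luc myoblasts moved in both directions. Of 18 FOXO target genes, 7 rose and 8 fell (61.7%) with piericidin, 6 rose and 9 fell (63.2%) with antimycin and 3 rose and 10 fell (50.8%) with oligomycin. The share after each count is that of all genes called in either direction, here and below. Pdk4, which shuts off pyruvate dehydrogenase, fell most in each (-2.90 ± 0.18, -2.26 ± 0.17 and -2.01 ± 0.17), and Sesn1, a stress-inducible inhibitor of mTORC1 signalling, fell too (-0.94 ± 0.19, -1.65 ± 0.20 and -1.41 ± 0.19). Bcl6, a transcriptional repressor, rose in each (0.72 ± 0.14, 1.58 ± 0.13 and 0.51 ± 0.14). The list medians were -0.24, -0.26 and -0.28, beside 0.00, 0.00 and -0.01 over all genes.

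Of 20 upstream regulators, 16 were tested, and 5 rose and 6 fell (61.7%) with piericidin, 5 rose and 5 fell (63.2%) with antimycin and 2 rose and 2 fell (50.8%) with oligomycin. Irs1, the adaptor that links the insulin and IGF receptors to the Akt pathway, fell with each drug. Its mean was 38.3 CPM with DMSO, and piericidin left 3.37 (-3.46 ± 0.16), antimycin 7.62 (-2.29 ± 0.14) and oligomycin 11.4 CPM (-1.74 ± 0.13). Irs2 of the target list, a related adaptor, rose with piericidin (1.16 ± 0.22) and antimycin (1.53 ± 0.22). Tsc22d3, a glucocorticoid-induced gene and also a FOXO target, rose with each (2.84 ± 0.12, 2.96 ± 0.12 and 1.01 ± 0.12). Among 14 other muscle ubiquitin ligases (13 tested), 3 rose and 3 fell (61.7%) with piericidin, 5 rose and 2 fell (63.2%) with antimycin and 5 rose and 2 fell (50.8%) with oligomycin. Trim32 (1.15 ± 0.09 and 1.29 ± 0.09 with the first and second drug) and Ubr2 (1.08 ± 0.13 and 0.94 ± 0.13) rose and Fbxo21 fell (-1.19 ± 0.25 and -1.12 ± 0.25). Of 10 ubiquitin and proteasome genes, 3 rose and 2 fell (61.7%) with piericidin, 1 rose and 3 fell (63.2%) with antimycin and 2 rose and 2 fell (50.8%) with oligomycin. The proteasome subunit gene Psma1 fell with each (-0.40 ± 0.06, -0.43 ± 0.06 and -0.33 ± 0.06).

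In myotubes the best-known wasting ligases moved in opposite directions with oligomycin. Fbxo32 read 52.5, 53.6 and 53.3 CPM with DMSO and 40.3, 36.7 and 39.96 with oligomycin, while Trim63 read 14.8, 16.4 and 16.5 and 19.1, 20.3 and 20.5 CPM. Every oligomycin sample was below every DMSO sample for Fbxo32 and above for Trim63. Fbxo32 fell by 0.41 ± 0.08, adjusted p = 0.000537, and Trim63 rose by 0.37 ± 0.11, adjusted p = 0.0111, the second lost without DMSO replicate 1 (0.31, adjusted p = 0.0554). The ratio of Trim63 to Fbxo32 CPM ran from 0.282 to 0.310 with DMSO and from 0.473 to 0.554 with oligomycin. Fbxo30 also fell with oligomycin (-0.54 ± 0.10, adjusted p = 0.000223), from 34.7, 39.5 and 40.8 to 29.1, 22.8 and 25.6 CPM. Foxo3 with oligomycin read -0.44, adjusted p = 0.209, or 0.02 ± 0.15, adjusted p = 0.95 with the well covariate. Its fall was called with no count filter (-0.46, adjusted p = 5.65e-05).

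Piericidin and antimycin raised Trim63 with no called change of Fbxo32. Trim63 read 19.4, 21.8 and 22.6 CPM with piericidin and 24.4, 23.2 and 22.1 with antimycin, all above the DMSO samples. It rose by 0.44 ± 0.11, adjusted p = 0.0102, with piericidin and rose by 0.56 ± 0.11, adjusted p = 0.000678, with antimycin. The piericidin call was lost without Pier replicate 3 or DMSO replicate 1 (0.39 to 0.41, adjusted p = 0.0514 to 0.0579). Fbxo32 read 49.2, 48.9 and 44.6 CPM (-0.14 ± 0.09, adjusted p = 0.353) and 52.3, 52 and 44.6 CPM (-0.08 ± 0.08, adjusted p = 0.623). With antimycin Fbxo30 (-0.31 ± 0.10, adjusted p = 0.0453) and Nedd4 (0.12 ± 0.04, adjusted p = 0.0387) were also called. The Fbxo30 call was lost without DMSO replicate 2 or 3 or Anti replicate 1 or 2 or 3 (-0.36 to -0.26, adjusted p = 0.0507 to 0.157). That of Nedd4 was lost without DMSO replicate 1 or 3 or Anti replicate 1 or 2 (0.08 to 0.11, adjusted p = 0.123 to 0.246). The ratio of Trim63 to Fbxo32 CPM ran from 0.394 to 0.507 with piericidin and from 0.445 to 0.495 with antimycin, above every DMSO sample and overlapping the oligomycin samples. Foxo3 read 58.4, 55.1 and 61.7 CPM with piericidin. Its rise was called with the well covariate (0.43 ± 0.13, adjusted p = 0.0411, against 0.43 ± 0.26, adjusted p = 0.368), with no count filter (0.41, adjusted p = 0.00124) and with only the groups compared (0.43, adjusted p = 0.00307). Antimycin gave -0.08 ± 0.26, adjusted p = 0.895, or 0.13 ± 0.13, adjusted p = 0.622 with the covariate.

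BAM15, which lets protons leak through the inner mitochondrial membrane, and 5% oxygen raised both ligases. With BAM15 Fbxo32 read 71.9, 75.7 and 68.8 CPM and Trim63 26.4, 28.5 and 23.3 CPM. Fbxo32 rose by 0.50 ± 0.08, adjusted p = 7.33e-05, Trim63 rose by 0.77 ± 0.11, adjusted p = 7.51e-06, and Nedd4 rose by 0.21 ± 0.04, adjusted p = 0.000316. Foxo3 with BAM15 read -0.14, adjusted p = 0.731, or 0.34 ± 0.15, adjusted p = 0.113 with the well covariate. In 5% oxygen Fbxo32 read 73.5, 61 and 70.6 CPM, Trim63 18.3, 20.9 and 22.6, Fbxo30 50.3, 52.5 and 44.7 and Foxo1 19.1, 20.5 and 16.2. These were the highest mean levels of Fbxo30 and Foxo1 in any of the 35 conditions (49.2 and 18.6 CPM). Fbxo32 rose by 0.41 ± 0.08, adjusted p = 0.000518, Trim63 rose by 0.43 ± 0.11, adjusted p = 0.00511, Fbxo30 rose by 0.41 ± 0.10, adjusted p = 0.00371, Foxo1 rose by 0.65 ± 0.15, adjusted p = 0.00192, and Nedd4 rose by 0.19 ± 0.04, adjusted p = 0.00056. The Trim63 call was lost without Hyp_DMSO replicate 3 (0.33, adjusted p = 0.0508). Foxo3 read 64.2, 66.9 and 49.6 CPM against 48, 43.2 and 41.1, all inner wells. It was called with the well covariate (0.50 ± 0.13, adjusted p = 0.00597, against 0.50 ± 0.25, adjusted p = 0.183), with no count filter (0.48, adjusted p = 1.71e-05) and with only the groups compared (0.48, adjusted p = 0.00423). Members called were 1 of the 8 with piericidin (8.99% of genes), 3 with antimycin (12.9%), 3 with oligomycin (33.3%), 3 with BAM15 (25.4%) and 5 in 5% oxygen (22.1%).

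The combinations asked whether another agent changes the oligomycin state. Added to oligomycin, BAM15 raised 6 of the 8 members and lowered none (26.1% of all genes were called). Fbxo32 went from 40.3, 36.7 and 39.96 CPM with oligomycin to 60.3, 64.6 and 63.2 with both (0.71 ± 0.08, adjusted p = 4.18e-07), above the DMSO level. Foxo1 went from 7.24, 9.80 and 10.3 to 13.7, 15.3 and 14.1 CPM (0.68 ± 0.15, adjusted p = 0.00135) and Fbxo30 from 29.1, 22.8 and 25.6 to 32.3, 34.8 and 32.6 CPM (0.40 ± 0.10, adjusted p = 0.00526). The calls on Trim63 (0.31 ± 0.10, adjusted p = 0.0291), Nedd4 (0.14 ± 0.04, adjusted p = 0.0104) and Foxo3 (0.71 ± 0.26, adjusted p = 0.0466, or 0.45 ± 0.14, adjusted p = 0.0156, with the well covariate) were less firm. Trim63 was lost without Oligo replicate 1 or 3 or Oligo_BAM15 replicate 3 (0.23 to 0.32, adjusted p = 0.0554 to 0.162). Nedd4 was lost without Oligo_BAM15 replicate 2 or Oligo replicate 3 (0.11, adjusted p = 0.0618 to 0.0624), and Foxo3 without Oligo replicate 1 or 2 or Oligo_BAM15 replicate 1 or 2 (0.46 to 0.71, adjusted p = 0.0882 to 0.272). Low oxygen with oligomycin gave 4 called members, all higher than with oligomycin in air (33.3% of genes). These were Fbxo32 at 53.2, 57.2 and 61.2 CPM (0.57 ± 0.09, adjusted p = 8.59e-06), Fbxo30 at 46.6, 43.4 and 36.8 (0.73 ± 0.10, adjusted p = 4.04e-06), Foxo1 at 16.9, 16.8 and 12.5 (0.77 ± 0.15, adjusted p = 0.000322) and Nedd4 (0.18 ± 0.04, adjusted p = 0.000809). Foxo3 read 0.61 ± 0.26, adjusted p = 0.0785 there, or 0.34 ± 0.14, adjusted p = 0.069 with the well covariate. It was called with no count filter (0.59, adjusted p = 4.6e-08), without Oligo replicate 3 (0.86, adjusted p = 0.027) and without Hyp_Oligo replicate 3 (0.87, adjusted p = 0.0108). Piericidin with oligomycin gave 1, Fbxo30 (0.34 ± 0.10, adjusted p = 0.0189, 20.9% of genes), which was lost without Oligo_Pier replicate 1 or Oligo replicate 2 or 3 (0.27 to 0.34, adjusted p = 0.051 to 0.108). Foxo3 read 0.72 ± 0.26, adjusted p = 0.0528 there, or 0.26 ± 0.15, adjusted p = 0.265 with the well covariate. It was called without Oligo replicate 3 (0.98, adjusted p = 0.0183), with no count filter (0.72, adjusted p = 4.92e-12) and with only the groups compared (0.72, adjusted p = 0.0334).

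Read from the other side, oligomycin on top of piericidin (1.19% of genes), of BAM15 (1.70%) or of 5% oxygen (4.26%) gave 0 called members of 8, with 0, 2 and 2 at an unadjusted p under 0.05 and 0 by DESeq2. Fbxo32 in those comparisons changed by -0.07 ± 0.09, adjusted p = 0.83, by -0.20 ± 0.08, adjusted p = 0.325 and by -0.25 ± 0.08, adjusted p = 0.0996. The interaction of oligomycin with oxygen was called at 0 members (17.4% of genes), with 2 at an unadjusted p under 0.05 (Trim63 and Fbxo30) and 0 by DESeq2, and for Fbxo32 it read 0.16 ± 0.12, adjusted p = 0.402. The oligomycin fall of Fbxo32 in air was thus not shown to differ from that in 5% oxygen.

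**Figure D4:**
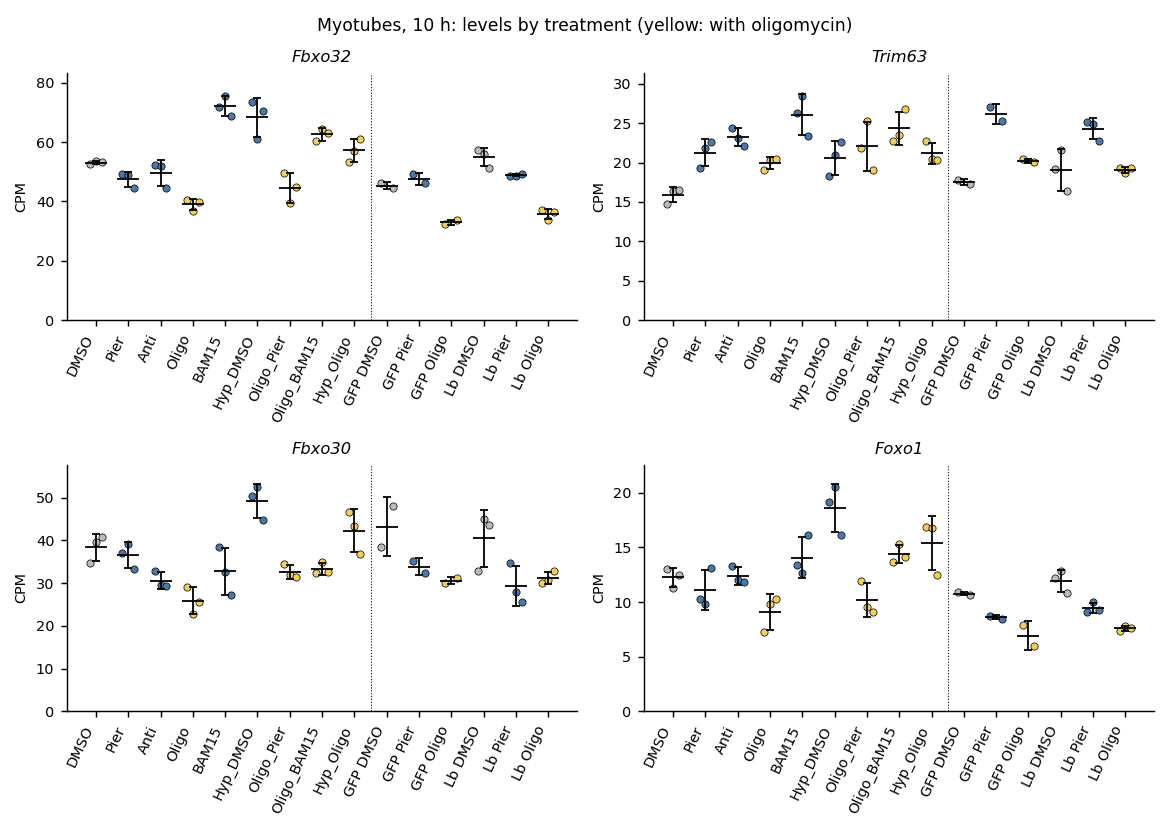
Levels (CPM, y axis from 0) of Fbxo32, Trim63, Fbxo30 and Foxo1 in myotubes after 10 h. Untransduced cells stand left of the dotted line and cells given adenovirus (GFP alone, or with LbNOX) right of it, points are samples (n = 3, for GFP n = 2), bars the mean and SD, and yellow marks oligomycin. The mean of Fbxo32 is lowest with oligomycin in each of the 3 backgrounds (32.4 to 40.3 CPM). The mean of Trim63 with oligomycin is 20 CPM in untransduced, 20.2 in GFP and 19.1 in Lb myotubes, in Lb no higher than with DMSO (19.1 CPM).

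The fall of Fbxo32 with oligomycin was also called in both kinds of transduced myotubes. Fbxo32 read 46.1 and 44.4 CPM with DMSO and 32.4 and 33.6 with oligomycin in GFP myotubes, and 57.3, 55.9 and 51.5 and 37, 33.9 and 36.4 in Lb myotubes. It fell by 0.47 ± 0.08, adjusted p = 0.000456, in GFP and fell by 0.62 ± 0.06, adjusted p = 3.05e-06, in Lb myotubes, with both calls kept when any library was left out. Trim63 with oligomycin was not called there (0.19 ± 0.12, adjusted p = 0.293 in GFP and -0.00 ± 0.10, adjusted p = 0.995 in Lb). The ratio of Trim63 to Fbxo32 CPM ran from 0.387 to 0.390 with DMSO and 0.597 to 0.629 with oligomycin in GFP. It ran from 0.318 to 0.386 and 0.522 to 0.550 in Lb myotubes. Foxo1 fell with oligomycin in Lb (-0.65 ± 0.13, adjusted p = 0.00147, from 12.2, 12.8 and 10.8 to 7.37, 7.78 and 7.66 CPM) and in GFP myotubes (-0.65 ± 0.16, adjusted p = 0.00842), where the call was lost without GFP DMSO replicate 1 or GFP Oligo replicate 2 (-0.63 to -0.48, adjusted p = 0.0539 to 0.0991). In untransduced myotubes it had read -0.38 ± 0.15, adjusted p = 0.057.

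Fbxo30 was called with oligomycin in GFP (-0.51 ± 0.16, adjusted p = 0.0317) and Lb myotubes (-0.37 ± 0.13, adjusted p = 0.0431) and with piericidin in Lb (-0.47 ± 0.13, adjusted p = 0.0479). The GFP call was lost without GFP DMSO replicate 2 or GFP Oligo replicate 1 or 2 (-0.55 to -0.34, adjusted p = 0.0903 to 0.229). The Lb call with oligomycin was lost without Lb DMSO replicate 2 or 3 or Lb Oligo replicate 1 or 2 or 3 (-0.41 to -0.28, adjusted p = 0.0658 to 0.175), and that with piericidin without Lb Pier replicate 2 or 3 or Lb DMSO replicate 2 or 3 (-0.45 to -0.36, adjusted p = 0.127 to 0.174). The Nedd4 calls with oligomycin were small (-0.12 ± 0.04, adjusted p = 0.0472 in GFP and -0.10 ± 0.04, adjusted p = 0.0367 in Lb). They were lost without GFP DMSO replicate 1 or 2 or GFP Oligo replicate 1 (-0.15 to -0.07, adjusted p = 0.0699 to 0.344) and without Lb DMSO replicate 1 or 2 or 3 or Lb Oligo replicate 1 or 2 (-0.09 to -0.08, adjusted p = 0.124 to 0.148). Trim63 with piericidin read 27.1 and 25.3 CPM against 17.8 and 17.3 in GFP myotubes (0.56 ± 0.12, adjusted p = 0.0206), a call lost without GFP DMSO replicate 1 or 2 or GFP Pier replicate 1 or 2 (0.51 to 0.60, adjusted p = 0.0715 to 0.12). It read 25.2, 25 and 22.7 CPM against 19.3, 21.6 and 16.4 in Lb myotubes (0.34 ± 0.10, adjusted p = 0.0566), called with DESeq2's size factors (0.35, adjusted p = 0.0495) and without Lb DMSO replicate 2 (0.44, adjusted p = 0.0307). Members called were 1 of the 8 with piericidin in GFP (3.09% of genes), 1 in Lb (6.78%), 4 with oligomycin in GFP (25.9%) and 4 in Lb (32.0%). LbNOX itself gave no called member in DMSO (0.0242% of genes, 1 member at an unadjusted p under 0.05, Fbxo32 at 0.27, and 0 by DESeq2), and neither the piericidin (0.00%, 1 and 0) nor the oligomycin interaction (0.00%, 0 and 0) with LbNOX was called at any.

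Day 1 cells, after 24 h in low serum, showed no called member with piericidin (2.73% of genes) or oligomycin (20.7%). At an unadjusted p under 0.05 there were 3 with piericidin (Fbxo32, Fbxo30 and Nedd4) and 0 with oligomycin, and DESeq2 called 0 in each. Fbxo32 read 64, 69.99 and 61.1 CPM with DMSO, 86.6, 69.2 and 73 with piericidin (0.23 ± 0.09, adjusted p = 0.209) and 69.5, 67.8 and 71.2 with oligomycin (0.10 ± 0.09, adjusted p = 0.466). Trim63 read 15.4, 12.9 and 14.5, 17.6, 16.2 and 14 and 15.3, 15 and 15.9 CPM.

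Whether a drug acted differently in another state was tested as an interaction with Luc myoblasts. Trim63, at or near 0 in every myoblast library, is left out, so each count is of 7 members. For piericidin, 4 differed in myotubes (46.5% of genes) and 6 in day 1 cells (46.7%). For antimycin 5 differed in myotubes (47.7%), and for oligomycin 2 in myotubes (28.7%) and 3 in day 1 cells (24.7%). Fbxo30 differed in all 5, its response being lower than in myoblasts each time: -0.66 ± 0.13, adjusted p = 8.66e-05, -0.84 ± 0.13, adjusted p = 2.65e-06 and -0.72 ± 0.13, adjusted p = 7.19e-05 in myotubes with piericidin, antimycin and oligomycin, and -0.82 ± 0.13, adjusted p = 4.15e-06 and -0.40 ± 0.13, adjusted p = 0.0214 in day 1 cells with piericidin and oligomycin. The last was lost without any 1 replicate number (-0.46 to -0.34, adjusted p = 0.059 to 0.155). Mul1 differed with piericidin (-0.85 ± 0.17, adjusted p = 0.000176 in myotubes, -0.68 ± 0.17, adjusted p = 0.00154 in day 1 cells) and antimycin (-1.02 ± 0.17, adjusted p = 1.2e-05), the day 1 call being lost without replicate 3 (-0.63, adjusted p = 0.0536). With oligomycin its interaction in myotubes had the other sign (0.45 ± 0.17, adjusted p = 0.052), and was called with DESeq2's size factors (0.45, adjusted p = 0.0484), with the replicate block (0.46, adjusted p = 0.0369) and without replicate 1 (0.70, adjusted p = 0.0239). Its rise in inhibited myoblasts had no called counterpart in the other states. Foxo1 differed with piericidin (0.86 ± 0.28, adjusted p = 0.0136 in myotubes and 1.01 ± 0.28, adjusted p = 0.00372 in day 1 cells) and with antimycin (1.67 ± 0.29, adjusted p = 2.34e-05). The piericidin calls were lost without replicate 2 or 3 (0.47 to 0.88, adjusted p = 0.098 to 0.31) in myotubes and without replicate 3 (0.74, adjusted p = 0.096) in day 1 cells.

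The Fbxo32 response to piericidin was less negative in myotubes (0.61 ± 0.16, adjusted p = 0.00301) and in day 1 cells (1.00 ± 0.16, adjusted p = 8.28e-06) than in myoblasts, the first lost without replicate 2 (0.52, adjusted p = 0.069). With oligomycin the interaction was called in day 1 cells (0.78 ± 0.16, adjusted p = 0.000442) and not in myotubes (0.30 ± 0.16, adjusted p = 0.163), where the gene also fell. The antimycin interaction (-0.44 ± 0.15, adjusted p = 0.0185) was lost without replicate 1 or 2 (-0.46 to -0.26, adjusted p = 0.0858 to 0.243) and with the well covariate (-0.36, adjusted p = 0.148). Foxo3 interactions with antimycin (-0.85 ± 0.35, adjusted p = 0.0489) and oligomycin (-1.08 ± 0.36, adjusted p = 0.0231) became 0.03 ± 0.32, adjusted p = 0.965, and -0.18 ± 0.32, adjusted p = 0.77, with the well covariate. Without it these calls were lost without replicate 1 or 3 (-0.90 to -0.40, adjusted p = 0.0806 to 0.464) and without replicate 1 or 3 (-0.95, adjusted p = 0.106 to 0.107). Foxo4 and Nedd4 differed with piericidin in day 1 cells (1.13 ± 0.43, adjusted p = 0.0321 and 0.19 ± 0.07, adjusted p = 0.0173), lost without replicate 3 (0.20, adjusted p = 0.753) and without replicate 1 or 3 (0.17 to 0.19, adjusted p = 0.058 to 0.107). With the well covariate both calls were lost too (1.06, adjusted p = 0.0635 for Foxo4 and 0.13, adjusted p = 0.0846 for Nedd4). Mul1 with oligomycin in day 1 cells (0.49 ± 0.17, adjusted p = 0.0382) was lost without any 1 replicate number (0.39 to 0.58, adjusted p = 0.0655 to 0.182) and with the well covariate (0.45, adjusted p = 0.0845).

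**Figure D5:**
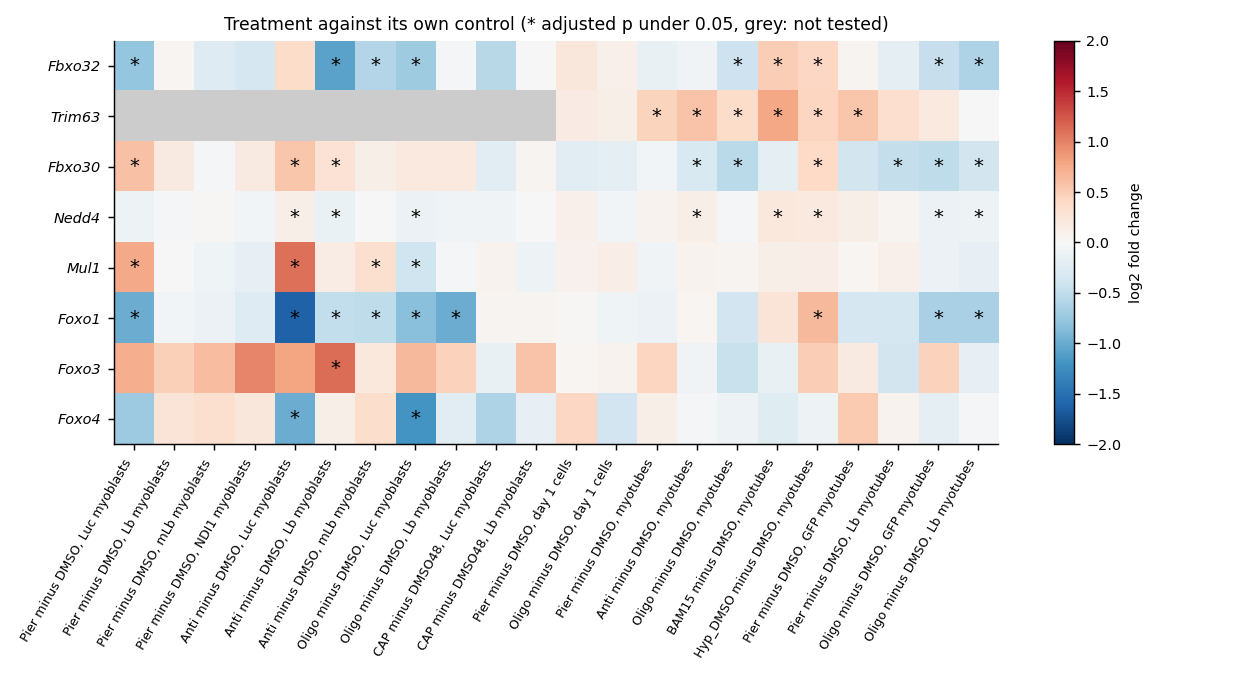
Log2 fold change (colour scale) of each member in 22 comparisons of a treatment with its own control, in myoblasts, day 1 cells and myotubes, with a star at an adjusted p under 0.05 and grey where a gene was not tested. Foxo1 falls in Luc myoblasts with all 3 inhibitors, Mul1 there rises with piericidin and antimycin and falls with oligomycin, and the starred Trim63 values, all in myotubes, are positive. Foxo3 values are those without the well covariate.

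The other genes of the circuit moved in both directions in myotubes too. Of 18 FOXO targets (17 tested), 3 rose and 2 fell (8.99%) with piericidin, 3 rose and 4 fell (12.9%) with antimycin, 3 rose and 3 fell (33.3%) with oligomycin, 10 rose and 1 fell (25.4%) with BAM15 and 6 rose and 1 fell (22.1%) in 5% oxygen. With oligomycin in transduced myotubes, where all 18 were tested, 2 rose and 7 fell (25.9%) in GFP and 3 rose and 8 fell (32.0%) in Lb. Bnip3, a mitophagy receptor that is also a well-known hypoxia gene, stood at 187 CPM with DMSO, 71 with oligomycin (-1.36 ± 0.10), 721 with BAM15 (2.00 ± 0.09) and 1061 in 5% oxygen (2.55 ± 0.09). Ccng2, an atypical cyclin tied to cell cycle arrest, moved the same way (-1.24 ± 0.12, 1.45 ± 0.11 and 1.65 ± 0.11), while Ctsl, a lysosomal protease, rose with oligomycin (0.90 ± 0.04). Among the 14 other muscle ligases, 6 rose and 2 fell (33.3%) with oligomycin, 6 rose and 2 fell (25.4%) with BAM15 and 5 rose and 0 fell (22.1%) in 5% oxygen. Asb2, a muscle ligase subunit that negatively regulates muscle mass, went the same way as Bnip3 with both, from 15.6 CPM with DMSO to 2.57 with oligomycin (-2.56 ± 0.16) and 47.6 with BAM15 (1.67 ± 0.12), but it rose with piericidin (1.61 ± 0.12), where Bnip3 fell (-1.06 ± 0.09). Fbxo40, a muscle ligase that targets Irs1, rose with oligomycin (0.68 ± 0.12), piericidin (0.61 ± 0.12), antimycin (0.72 ± 0.12) and BAM15 (0.91 ± 0.12).

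Upstream regulators in myotubes (18 of 20 tested) also moved both ways: 1 rose and 1 fell (8.99%) with piericidin, 1 rose and 2 fell (12.9%) with antimycin, 4 rose and 5 fell (33.3%) with oligomycin, 3 rose and 3 fell (25.4%) with BAM15 and 3 rose and 1 fell (22.1%) in 5% oxygen. Tsc22d3 rose with oligomycin (0.61 ± 0.05) and BAM15 (0.62 ± 0.05). Tnfrsf12a, the receptor of the wasting cytokine TWEAK, fell with piericidin (-0.80 ± 0.05) and BAM15 (-0.86 ± 0.05). Smad3, which carries myostatin and TGF-beta signals, fell with oligomycin (-1.03 ± 0.15) and BAM15 (-0.99 ± 0.15). Of the 10 ubiquitin and proteasome genes, 0 rose and 4 fell (33.3%) with oligomycin, 1 rose and 5 fell (25.4%) with BAM15 and 1 rose and 3 fell (22.1%) in 5% oxygen, with the proteasome subunit gene Psmb3 lower with BAM15 (-0.38 ± 0.05) and in 5% oxygen (-0.43 ± 0.05). From myoblasts to myotubes, 14 of 18 FOXO targets rose and none fell (median 1.25, against 0.04 over all genes, of which 69.2% were called), among them Pik3ip1, a negative regulator of PI3-kinase (4.10 ± 0.16). Of the 20 upstream regulators (18 tested) 7 rose and 6 fell (median 0.16), and of the 10 ubiquitin and proteasome genes 3 rose and 3 fell (median 0.05). Of the 14 other ligases 6 rose and 2 fell, with the sarcomere-linked Trim54 (5.73 ± 0.13) and Trim55 (3.67 ± 0.20) among those that rose. In the 10 h myoblast fit only 13 of these ligases and 16 of the regulators passed the count filter. The rest entered the state fit only through day 1 cells or myotubes, so the filter fixed their direction, as for Trim63.

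Across the 35 condition means, each centred within its experiment, the genes most like each member were, with 1 exception, not members. The closest pair of members was Fbxo32 and Nedd4 (Pearson r = 0.80), then Foxo1 and Foxo4 (0.55), whereas Foxo1 and Mul1 ran opposite (-0.46), Fbxo32 and Foxo1 gave 0.19 and Fbxo32 and Trim63 0.26. The 3 genes closest to Fbxo32 were Mtss1 (0.86), Vim (0.82) and Sox9 (0.81). Those closest to Foxo1 were Mturn (0.90), Casp6 (0.89) and Zc2hc1a (0.89), and those closest to Mul1 were Dusp10 (0.91), Zfp715 (0.91) and Tox4 (0.89). For Fbxo30 they were Plod2 (0.84), Kdm4b (0.82) and Eif1b (0.79), and for Nedd4 they were Nptx1 (0.84), Tbc1d1 (0.81) and Fbxo32. For Foxo4 they were Sertad4 (0.77), Ormdl2 (0.76) and Plekhf1 (0.75), and for Trim63, at or near 0 in every myoblast library, Sun1 (0.74), Prkab2 (0.73) and BC002059 (0.70). The genes closest to Foxo3 were Rab11fip1 (0.89), Hyi (0.86) and Ccnl2 (0.84), and all 3 were lower in outer wells, as Foxo3 was (-1.17 ± 0.12, -1.31 ± 0.13 and -1.01 ± 0.12). The conditions share controls and libraries, so these values describe likeness and carry no test.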

How the data were processed

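RNA from 96 C2C12 samples was made into Smart-seq2 libraries, which do not mark strand. The authors deposited estimated counts per gene, made with kallisto 0.44 and tximport; mm10 and bcl2fastq 2.20.0.422 are in the submitters' processing notes. The table was used as deposited, rounded to whole numbers. It holds 54146 genes, and 4 transgene rows were left out of library sizes and tests.

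Samples were grouped by state, transgene and treatment from their labels. A gene entered a fit when all replicates of some condition held 16 counts or more. In 6 fits, 53 comparisons were tested with edgeR 4.0.16 (R 4.3.3; TMM, quasi-likelihood F test, Benjamini-Hochberg within a comparison, called at an adjusted p under 0.05). SE was taken as the size of the log2 fold change over the square root of F. The text names all 8 members and, per pathway list and comparison, at most 3 called genes in each direction, those with the largest change among genes with a mean of at least 5 CPM over the fit. Genes like a member were ranked by Pearson r over condition means of log2(CPM + 0.5). Members and lists were chosen with earlier results of these data known. Replicate pairs (87) were compared, and none held identical values. The scripts were tested on simulated data. Alternatives were DESeq2 1.42.0 (Wald test, and its size factors in edgeR), no count filter, well position as a covariate, a replicate block, only the groups compared, and each library left out. In the fit of the states, each replicate number was left out of all conditions at once instead. The fit of well position over all 96 samples was chosen after the data were seen.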

Additional observations from a re-analysis of the deposited data

Results flagged for a closer look

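Trim63 aside, members had 105 interaction tests in 15 comparisons, of which 39 were called (edgeR, adjusted p under 0.05), or 37.1%, where 29% of the tests over all genes were. The calls came from the 35 tests of the states (57.1% called, against 38.8% over all genes) and the 42 of the cell lines at 10 h (45.2% against 36.9%). The 39 are log2 differences between responses, the second group being Luc myoblasts throughout, and no cause was tested. They are repeated here so that each can be looked up, and their errors and p-values stand with the comparisons above.

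Piericidin acted differently in Lb myoblasts on Fbxo32 (0.81), Fbxo30 (-0.41), Foxo1 (0.95) and Mul1 (-0.76), in mLb myoblasts on Fbxo30 (-0.60), Foxo1 (0.89) and Mul1 (-0.84), and in NDI1 myoblasts on Fbxo30 (-0.41) and Mul1 (-0.93). Antimycin acted differently in Lb myoblasts on Fbxo32 (-1.45), Foxo1 (1.12), Foxo4 (1.11), Nedd4 (-0.24) and Mul1 (-0.96), and in mLb myoblasts on Fbxo32 (-0.95), Fbxo30 (-0.43), Foxo1 (1.11), Foxo4 (1.34) and Mul1 (-0.79).

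Between states, the piericidin response of myotubes differed at Fbxo32 (0.61), Fbxo30 (-0.66), Foxo1 (0.86) and Mul1 (-0.85), and that of day 1 cells at Fbxo32 (1.00), Fbxo30 (-0.82), Foxo1 (1.01), Foxo4 (1.13), Nedd4 (0.19) and Mul1 (-0.68). The antimycin response of myotubes differed at Fbxo32 (-0.44), Fbxo30 (-0.84), Foxo1 (1.67), Foxo3 (-0.85) and Mul1 (-1.02). The oligomycin response differed in myotubes at Fbxo30 (-0.72) and Foxo3 (-1.08) and in day 1 cells at Fbxo32 (0.78), Fbxo30 (-0.40) and Mul1 (0.49). Both Foxo3 values shrank below the threshold with the well covariate, as given above. Serum, density, transgene and doxycycline differ between these states and cannot be told apart from state.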

How the results depend on the processing

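Of 120 called member results (Trim63 against myoblasts aside), 70 kept their direction and call under every alternative run, 50 lost the call in some leave-out and 38 under some other alternative. The causes were not tested. Over all member results, given above or not, calls lost and gained were 9 and 3 with DESeq2's Wald test, 6 and 4 with its size factors, 24 and 18 with no count filter (all 18 gains were of Foxo3), 7 and 5 with the replicate block, 18 and 8 with only the groups compared, and 19 and 7 with the well covariate, where 1 of the lost calls changed sign. The well covariate could not be fitted in day 1 cells, all in outer wells. With it, Foxo1 also lost its calls with antimycin in Lb (adjusted p = 0.0546) and for antimycin against piericidin in Luc myoblasts (adjusted p = 0.0555). Myotubes lost those of Fbxo30 and Nedd4 with antimycin (adjusted p = 0.0792 and 0.0687) and of Fbxo30 for piericidin added to oligomycin (adjusted p = 0.082). Transduced myotubes lost those of Nedd4 with oligomycin in GFP (adjusted p = 0.0869) and of Fbxo30 with piericidin in Lb (adjusted p = 0.066). Counts of called members that moved by over 1.5 times are given next, main value first.

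With the well covariate the count went from 4 to 2 between myotubes and day 1 cells, from 5 to 3 in the antimycin and 2 to 1 in the oligomycin state interaction of myotubes, from 0 to 1 for NDI1 against Luc, and in myotubes from 1 to 2 with piericidin, 3 to 1 with antimycin, 1 to 0 for piericidin added to oligomycin and 1 to 0 with piericidin in Lb myotubes. Foxo3 changed sign in 12 of 51 comparisons, among them the antimycin state interaction (-0.85 to 0.0282), with antimycin in Luc myoblasts (0.78 to -0.0845) and with oligomycin in myotubes (-0.44 to 0.0165). With no count filter the count went from 3 to 1 in the oligomycin interaction of day 1 cells, 5 to 3 with antimycin and 1 to 2 with oligomycin in Lb myoblasts, 0 to 1 with piericidin and 3 to 1 with antimycin in mLb, 0 to 1 with piericidin in NDI1, 4 to 2 for antimycin against piericidin, 2 to 1 in the NDI1 interaction, 3 to 1 with antimycin in myotubes, 1 to 2 for piericidin added to oligomycin, 0 to 1 for oligomycin added to BAM15 and to 5% oxygen, 1 to 2 with piericidin in Lb myotubes, and 0 to 1 for Lb against GFP and for the oligomycin interaction there. With only the groups compared it went from 1 to 2 with piericidin and for piericidin added to oligomycin in myotubes, 6 to 3 for BAM15 added to oligomycin, 1 to 0 with piericidin and 4 to 2 with oligomycin in GFP and 1 to 0 with piericidin in Lb myotubes. DESeq2's size factors gave 2 in place of 1 with piericidin in Lb myotubes.

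Replicate numbers did not pair the samples: deviations of same-numbered samples correlated at -0.0444 to 0.0546 on average over the 5 experiments, with a negative lowest pair in each. The replicate block moved the count from 0 to 1 for NDI1 against Luc, from 4 to 2 with oligomycin in GFP and in Lb myotubes, and from 1 to 0 with piericidin in Lb myotubes.

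Leaving out 1 library or replicate number gave 2 to 4 called members between myotubes and day 1 cells, 2 to 4, 3 to 4 and 1 to 3 in the piericidin, antimycin and oligomycin interactions of myotubes and 2 to 6 and 1 to 2 in the piericidin and oligomycin interactions of day 1 cells. In myoblasts it gave 3 to 5 with oligomycin in Luc, 2 to 5 with antimycin and 1 to 2 with oligomycin in Lb, 1 to 2 with antimycin in mLb, 2 to 4 for antimycin against piericidin, 3 to 6 and 0 to 1 in the antimycin and oligomycin interactions of Lb, 3 to 5 in both of mLb and 1 to 2 in that of NDI1. In myotubes it gave 0 to 1 with piericidin, 1 to 2 with antimycin, 0 to 2 for piericidin added to oligomycin, 0 to 1 for oligomycin in 5% oxygen, 0 with piericidin and 2 with oligomycin in GFP, and 0 to 1 and 2 to 3 with piericidin and oligomycin in Lb myotubes. Small counts limit Foxo4, Foxo1 and Trim63, with at least 9, 21 and, in myoblasts, 0 counts in a library.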
